A study of Mus musculus with 9 samples.

Results

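The comparison described here set lineage-negative Sca1+ cKit+ (LSK) bone marrow cells of mice carrying a mutant Dnmt3a allele and the Mx1-Cre transgene against LSK cells of mice that carried the conditional allele without Cre. Its members were all libraries labelled with these genotypes, 6 of the 9 libraries of the series: 4 mutant libraries (genotype label cKI_Mx+, given in the design as Dnmt3a+/m) and 2 Cre-negative libraries (cKI_Cre-, given as Dnmt3a+/-). The other 3 libraries, from Dnmt3a+/+ mice with Mx1-Cre (wt_Mx+), served as a reference level. All mice were C57BL/6 and 6 months old, and the treatment protocol attached to every library names 5 intraperitoneal injections of poly(I:C), a synthetic double-stranded RNA. Cre was driven by the Mx1 promoter, an interferon-responsive promoter that is not limited to stem cells. The groups differed both in the state of the Dnmt3a allele and in the presence of Mx1-Cre, and these cannot be told apart. The labels do not say whether a library came from 1 mouse or from a pool, or whether libraries of a group came from separate animals, so p-values measure only the spread between these samples.

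Dnmt3a is a de novo DNA methyltransferase that adds methyl groups to CpG sites and is needed for the balance of self-renewal and differentiation in haematopoietic stem cells. LSK cells are the bone marrow fraction that holds stem cells and multipotent progenitors. Poly(I:C) is sensed by RNA receptors, and the type I interferon that follows acts through receptor-bound kinases and the transcription factors they activate to switch on antiviral genes, among them the immunity-related GTPases (IRG) and guanylate-binding proteins (GBP) that attack vacuoles holding intracellular pathogens.

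The RNA-seq libraries held 47792306 to 58405879 reads assigned to genes, and levels are given as CPM, a gene's count relative to its library's total after scaling by edgeR's trimmed mean of M values. Values of a gene are given in the order mutant_824, mutant_827, mutant_829 and mutant_830, then cre_negative_780 and cre_negative_819. The sort marker genes Kit (398 to 489 CPM in the mutant, 502 and 407 in the Cre-negative libraries) and Ly6a, which encodes Sca1 (32.7 to 39.9, against 27.2 and 30.6), were present in all 6 libraries, as was the progenitor gene Cd34 (1046 to 1316, against 1017 and 904). Kit overlapped between the groups, while Ly6a (log2 difference 0.31, SE 0.14) and Cd34 (0.30, SE 0.17) were higher in every mutant library than in both Cre-negative libraries, which lay below all other 7. The 2 Cre-negative libraries stood further apart from each other than any other pair of 1 group: a chi-square of their gene counts was 310 per degree of freedom, against 14.6 to 46.2 for mutant pairs and 43.4 to 115 for wild-type pairs. On the first principal component, with 30.4% of the variance, they took the 2 ends and the other 7 libraries lay between them. Y-linked transcripts were present in cre_negative_780, mutant_824, mutant_827 and 2 of the wild-type libraries and absent from the others. The main results are therefore also given without cre_negative_780 or without cre_negative_819, in fits that leave 1 library in that group and take its spread from the other groups.

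Of 18576 genes tested with edgeR's quasi-likelihood test, 0 passed a Benjamini-Hochberg adjusted p of 0.05. At an unadjusted p under 0.05 there were 978 genes (5.26%), 288 higher in the mutant (1.55%) and 690 lower (3.71%), where 929 would fall under it if no gene differed. DESeq2 called 22 of the same genes (0.118%), 10 higher and 12 lower, and limma-voom called 0 with 183 at an unadjusted p under 0.05. The mutant libraries all lay above both Cre-negative libraries for 945 genes (5.09%) and below both for 1351 (7.27%). Without cre_negative_780 the edgeR count was 1012 higher (5.24% of 19301) and 4.26% of genes lower, and without cre_negative_819 it was 0 higher and 9 lower (0.0462% of 19497). An exact two-sided permutation test on the ranks of 4 libraries against 2 cannot give a p below 0.133, so none is given for single genes. Since no gene passed the edgeR test, values are given and it is said where groups did not overlap.

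Dnmt3a itself (chromosome 12, 3806007 to 3914443, GRCm38) stood at 159.5, 158, 171 and 153 CPM in the mutant libraries and at 118 and 93.5 in the Cre-negative libraries. All 4 mutant libraries lay above both Cre-negative libraries and overlapped the wild-type range of 148 to 174. The log2 difference was 0.60 (SE 0.12, edgeR adjusted p = 0.800), and DESeq2 called it with an adjusted p of 0.00761, in a range over the alternatives from 0.00586 to 0.9999. It was 0.83 without cre_negative_780 and 0.48 without cre_negative_819. The counts per gene do not separate the mutant from the normal transcript. Of 19 genes of DNA methylation and demethylation tested, 10 had a higher and 9 a lower fitted mean in the mutant. The groups did not overlap for 5 of the higher genes and 4 of the lower, beside 5.09% and 7.27% of all genes. For 3 of the 19 both Cre-negative libraries lay below all other 7, as they did for 1.97% of all genes.

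Among the readers and partners of this system, Tdg, the glycosylase that removes oxidised methylcytosine, stood at 28.9, 26.1, 26.2 and 27.9 CPM in the mutant and 21.8 and 22.4 in the Cre-negative libraries. Zbtb33, which encodes the methyl-CpG binding protein Kaiso, stood at 23.6, 27.6, 24.8 and 25.4 against 31.5 and 42.0. Tdg lay higher and Zbtb33 lower in every mutant library, with log2 differences of 0.30 (SE 0.11) and -0.54 (SE 0.20). The maintenance methyltransferase Dnmt1 (695 to 861 CPM in the mutant, 589 and 695 in the Cre-negative libraries) and the de novo enzyme Dnmt3b (104 to 127, against 109 and 92.6) overlapped. The same was so of Tet2, a methylcytosine dioxygenase, at 63.2 to 79.8 against 79.5 and 90.7.

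**Figure D1:**
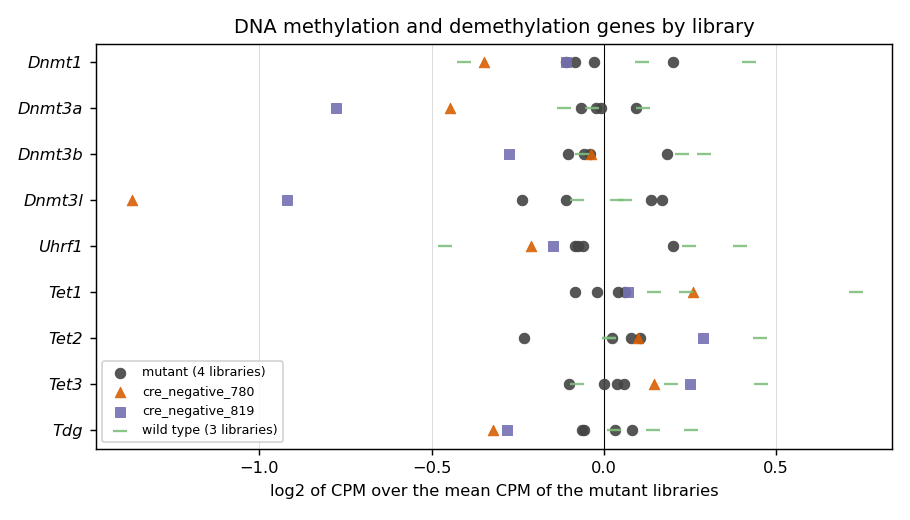
Level of 9 DNA methylation and demethylation genes, as log2 of CPM over the mean CPM of the mutant libraries, with 1 point per library. Both Cre-negative libraries lie left of the 4 mutant libraries for Dnmt3a, Tdg, Dnmt3l and Uhrf1, right of them for Tet1 and Tet3, and overlap with them for Dnmt1, Dnmt3b and Tet2.

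The interferon-inducible GTPases were the one list of the 43 tested in which every tested gene had the same sign, lower in the mutant. Promoters of 5 of them are shown first, for the matches they hold to either of 2 interferon motifs: the core of the interferon-stimulated response element (ISRE), searched as 2 GAAA repeats with any 2 bases between them, and the gamma-activated site (GAS), searched as TTCNNNGAA, both on either strand. The windows are 300 bases from RefSeq on build GRCm38.p6, each printed 5′ to 3′ on the gene's strand, in lower case with motif matches in capitals. They are Tgtp2 (chr11:49064163-49064462, minus strand), Tgtp1 (chr11:48992197-48992496, minus strand), Irgm2 (chr11:58214727-58215026, plus strand), Irgm1 (chr11:48871371-48871670, minus strand) and Gbp7 (chr3:142530086-142530385, plus strand).
Tgtp2: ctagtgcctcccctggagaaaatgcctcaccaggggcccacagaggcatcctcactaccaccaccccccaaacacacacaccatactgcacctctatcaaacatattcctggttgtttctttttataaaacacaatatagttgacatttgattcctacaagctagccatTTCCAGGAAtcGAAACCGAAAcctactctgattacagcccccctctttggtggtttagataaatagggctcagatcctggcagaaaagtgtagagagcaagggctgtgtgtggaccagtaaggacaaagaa
Tgtp1: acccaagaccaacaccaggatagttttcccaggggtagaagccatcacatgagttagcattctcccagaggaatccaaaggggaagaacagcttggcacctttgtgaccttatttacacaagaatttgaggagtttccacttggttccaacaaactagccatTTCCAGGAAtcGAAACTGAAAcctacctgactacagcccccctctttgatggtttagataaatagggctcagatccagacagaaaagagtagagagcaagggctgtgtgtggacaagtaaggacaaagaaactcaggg
Irgm2: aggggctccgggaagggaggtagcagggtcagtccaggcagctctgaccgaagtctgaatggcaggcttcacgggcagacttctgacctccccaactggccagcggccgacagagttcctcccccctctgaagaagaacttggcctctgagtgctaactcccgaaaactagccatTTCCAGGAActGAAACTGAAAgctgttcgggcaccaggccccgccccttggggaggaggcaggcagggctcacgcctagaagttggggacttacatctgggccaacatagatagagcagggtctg
Irgm1: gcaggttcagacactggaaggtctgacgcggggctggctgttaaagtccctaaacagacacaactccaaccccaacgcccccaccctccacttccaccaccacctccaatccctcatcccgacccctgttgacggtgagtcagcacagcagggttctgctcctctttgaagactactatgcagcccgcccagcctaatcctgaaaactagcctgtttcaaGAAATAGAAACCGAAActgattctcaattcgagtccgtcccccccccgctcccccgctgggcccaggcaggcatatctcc
Gbp7: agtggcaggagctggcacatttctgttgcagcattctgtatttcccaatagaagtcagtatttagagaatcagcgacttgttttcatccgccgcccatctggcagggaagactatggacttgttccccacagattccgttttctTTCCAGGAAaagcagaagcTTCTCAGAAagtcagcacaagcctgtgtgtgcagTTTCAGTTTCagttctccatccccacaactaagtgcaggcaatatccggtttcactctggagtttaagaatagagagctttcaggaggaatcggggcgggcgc
In Tgtp2, Tgtp1 and Irgm2 the same GAS match, TTCCAGGAA, stood 2 bases before the ISRE match. In Gbp7 a GAS match stood 25 bases before the ISRE match, and the Irgm1 window held no GAS match. The ISRE core was found in 3.43% of 32817 RefSeq promoter windows of this length and the GAS in 8.29%. Of the 18 IRG and GBP genes tested, 11 had a window, 9 of these genes held the ISRE core and 5 the GAS. Of the 49 antiviral effectors tested, 39 had a window, 19 of these genes held the ISRE core and 7 the GAS. Among the 13 effectors with a window that lay below both Cre-negative libraries, 4 held the ISRE core and 0 the GAS. For the 6 such IRG and GBP genes the counts were 6 and 4. The windows of Irf7 and Irf9 held 0 matches to either, and that of Ddx60 held 2 ISRE matches and 0 GAS matches. A match is a description of letters and not a measured binding site.

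All 18 tested IRG and GBP genes had a lower fitted mean in the mutant, where 55.8% of all genes did. Of these, 10 did not overlap between the groups, where 7.27% of all genes lay below both Cre-negative libraries. An unadjusted p under 0.05 was found for 11, beside 3.71% of all genes in that direction. The list's median log2 difference was -0.64 beside -0.03 over all genes tested. Iigp1, an IRG that loads onto pathogen vacuoles, stood at 50.5, 49.5, 34.6 and 61.3 CPM in the mutant and 81.9 and 134 in the Cre-negative libraries. Both Cre-negative libraries were high, cre_negative_819 more so, and the wild-type range of 37.6 to 56.2 covered 2 of the 4 mutant values, with 1 below it and 1 above. Its log2 difference was -1.14 (SE 0.25, edgeR adjusted p = 0.800), -1.41 without cre_negative_780 and -0.71 without cre_negative_819. DESeq2 called it with an adjusted p of 0.0338, in a range over the alternatives from 0.0123 to 0.9999. In bulk samples, fewer cells of a type and less RNA per cell cannot be told apart.

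Tgtp2, a GTPase of the same family, stood at 60.5, 60.01, 45.9 and 64.9 CPM in the mutant and at 73.2 and 134 in the Cre-negative libraries (log2 difference -0.84, SE 0.21). Irgm1, a regulator that holds other IRG proteins inactive on the cell's own membranes, stood at 103, 102, 93.0 and 104 against 112 and 215. For both genes cre_negative_780 lay a little above the highest mutant library and cre_negative_819 far above it. Without cre_negative_819 the log2 differences were -0.31 and -0.14, and without cre_negative_780 -1.17 and -1.05. Gbp7 stood at 201, 212, 186 and 213 against 229.7 and 307 and Irgm2 at 54.5, 55.9, 45.7 and 59.6 against 66.5 and 87.7, again without overlap. Igtp, at 63.1, 59.7, 50.0 and 69.9 against 67.5 and 150.3, overlapped through cre_negative_780. The remaining members whose groups did not overlap were Tgtp1, F830016B08Rik, Gvin1, Gm4951 and Gbp3. Tgtp1 and Tgtp2 are near-identical copies, and some GBP genes share sequence with each other. Reads that fit more than 1 gene were not counted, so the separate levels of such genes are uncertain. For 7 of the 18 genes both Cre-negative libraries lay above all other 7, wild type included, as they did for 2.54% of all genes. The list's median was -0.64 without cre_negative_780 and -0.32 without cre_negative_819. Against wild type, fitted in the same model and sharing these libraries, the median was -0.03 for the mutant and 0.62 for the Cre-negative libraries.

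**Figure D2:**
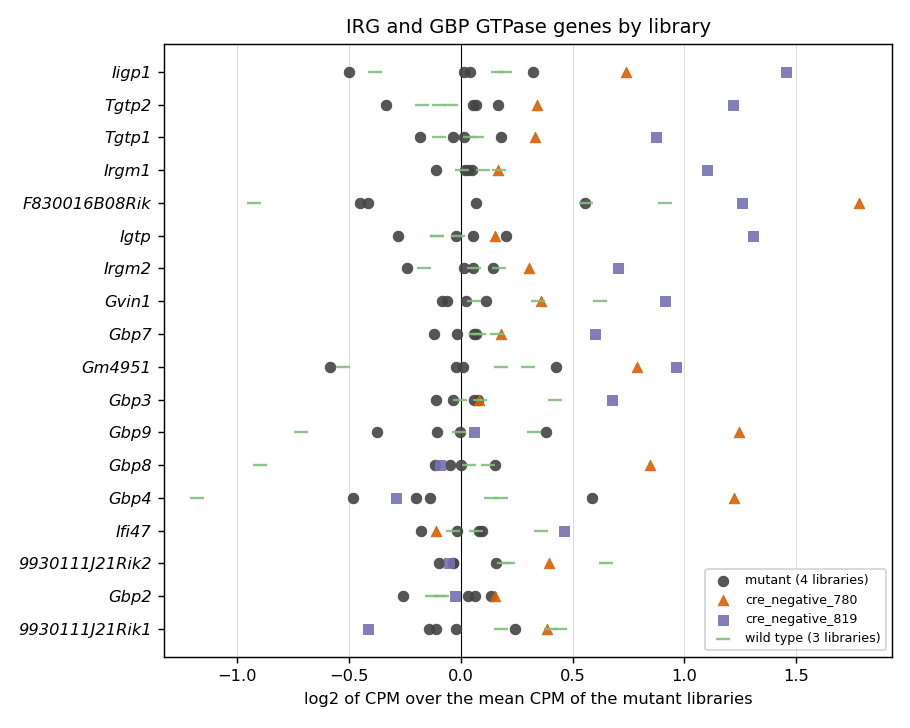
Level of the 18 IRG and GBP genes tested, as log2 of CPM over the mean CPM of the mutant libraries, with 1 point per library and genes ordered by unadjusted p. Both Cre-negative libraries lie right of all mutant libraries for 10 genes, and cre_negative_819 lies furthest right for Iigp1, Tgtp2 and Irgm1.

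The other interferon lists had medians nearer 0. Over all 8 interferon and antigen presentation lists together, 112 of 155 tested genes had a lower mean in the mutant, beside 55.8% of all genes. Of the 155, 45 (29.0%) lay below both Cre-negative libraries beside 7.27% of all genes. At the top of the pathway, 10 of 13 receptor and JAK-STAT genes had a lower mean, and 3 of them did not overlap, beside the same 55.8% and 7.27%. Irf9 and Stat2 were among the 3. Irf9 stood at 91.2, 89.5, 98.8 and 102 CPM in the mutant and 124 and 129 in the Cre-negative libraries. Stat2 stood at 35.7, 38.6, 46.9 and 47.3 against 53.6 and 57.6. The log2 differences were -0.41 (SE 0.10) for Irf9 and -0.40 (SE 0.15) for Stat2. Without cre_negative_819 they were -0.35 and -0.32, and without cre_negative_780 -0.39 and -0.40. The receptor subunits Ifnar1 (0.03, SE 0.10) and Ifnar2 (-0.01, SE 0.10) and the kinase Jak1 (-0.06, SE 0.11) differed by little on the same scale.

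Among the interferon regulatory factors, 6 of 12 had a lower mean in the mutant, beside 55.8% of all genes. Irf7, the factor that amplifies type I interferon, stood at 14.9, 15.3, 15.9 and 18.6 CPM in the mutant and 27.1 and 22.2 in the Cre-negative libraries, and the wild-type libraries held 19.2 to 20.8. Its mutant libraries lay below all 5 others, with a log2 difference of -0.61 (SE 0.14), -0.41 without cre_negative_780 and -0.72 without cre_negative_819. Of 19 sensors and adaptors, 11 had a lower mean, near the share of all genes, and 3 did not overlap, beside 7.27% of all genes. The helicase Ddx60 stood at 50.9, 53.2, 44.7 and 46.6 against 62.8 and 68.7, and Ifih1, the receptor for long double-stranded RNA, at 81.8, 82.8, 79.7 and 86.2 against 89.9 and 104. For both, each mutant library was below each Cre-negative library.

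Of 49 antiviral effectors, 38 had a lower mean in the mutant, 17 lay below both Cre-negative libraries and 2 above both. Over all genes the shares were 55.8%, 7.27% and 5.09%. Their median was -0.23, -0.06 without cre_negative_780 and -0.23 without cre_negative_819. In this list the Cre-negative libraries sat near wild type, with a median of -0.03 against it, and the mutant at -0.19. Mx1, an antiviral GTPase whose promoter also drives the Cre transgene, stood at 3.37, 2.63, 4.26 and 4.22 CPM in the mutant, 6.72 and 5.33 in the Cre-negative libraries and 5.48 to 9.48 in wild type. Oasl1 stood at 5.81, 5.70, 6.27 and 6.52 against 8.0 and 11.4, and the mutant libraries were the lowest for both genes, except that 1 wild-type library lay within the mutant range of Oasl1. Among 14 feedback inhibitors, Usp18, which removes ISG15 and dampens the receptor, stood at 14.9, 15.6, 15.9 and 16.6 against 20.7 and 20.8, and Socs3 at 10.8, 13.0, 14.8 and 25.1 against 10.2 and 6.54, in the opposite direction. Of 20 MHC class I and immunoproteasome genes, 15 had a lower mean and 4 did not overlap, beside 55.8% and 7.27% of all genes. The 4 were H2-Q4, H2-Q6, H2-Q7 and H2-T22, which share sequence with each other.

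Red cell genes were higher in cre_negative_819 alone. Of 21 globin and red cell genes tested, 20 had a lower mean in the mutant, beside 55.8% of all genes. In that direction 14 had an unadjusted p under 0.05, beside 3.71% of all genes. The groups did not overlap for 3 (14.3%), where 7.27% of all genes lay below both Cre-negative libraries. The median log2 difference was -1.96, -2.73 without cre_negative_780 and 0.08 without cre_negative_819. Car1, the carbonic anhydrase of early erythroid cells (chromosome 3, 14766216 to 14808368), stood at 77.7, 86.8, 142 and 75.0 CPM in the mutant, 108 in cre_negative_780 and 1442 in cre_negative_819, and its log2 difference of -3.02 became -0.16 without the latter. Klf1, the erythroid transcription factor, stood at 4.83, 4.57, 8.49 and 5.28 CPM in the mutant and 5.09 and 58.8 in the Cre-negative libraries. The summed level of the list was 4550 CPM in cre_negative_819, 1225 in cre_negative_780, 1006 to 1206 in the mutant and 918 to 1313 in wild type. The adult globin genes, which define maturing red cells, were low throughout: Hbb-bt stood at 2.38, 2.64, 4.20 and 2.15 CPM in the mutant and 2.15 and 2.91 in the Cre-negative libraries, and Hba-a1 at 0.799, 0.197, 0.212 and 0.133 against 0.737 and 0.421. Globin genes are near-identical copies, so these levels are uncertain. The 5 libraries with Y-linked transcripts all lay below the 4 without them for 6 of the 21 genes, as they did for 3.06% of all genes.

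The same library stood apart in 2 further erythroid lists. Tfrc, the transferrin receptor, stood at 130.3, 137, 204 and 182 CPM in the mutant and 162 and 646 in the Cre-negative libraries. Epor, the erythropoietin receptor, stood at 4.07, 3.54, 6.25 and 5.85 against 4.57 and 20.7. The haem and iron list had a median of -0.41, which was 0.07 without cre_negative_819, and the list of erythroid transcription factors and signalling -0.29 and 0.04. Over the 3 lists, 45 of 49 genes had a lower mean in the mutant, beside 55.8% of all genes. Their median was -0.80, -1.02 without cre_negative_780 and 0.06 without cre_negative_819.

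**Figure D3:**
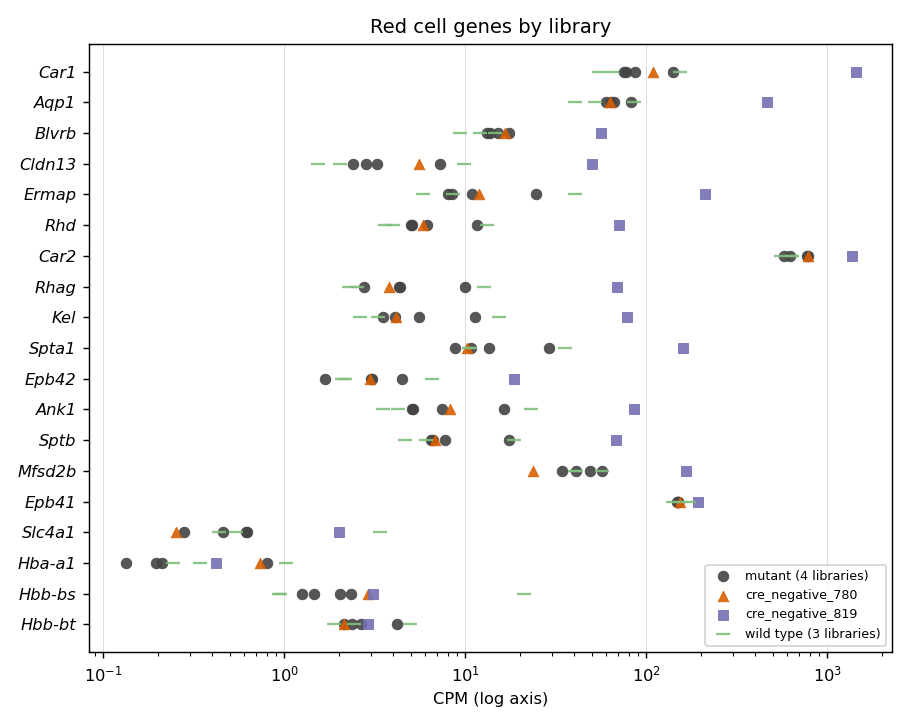
Level of red cell genes that had reads in all libraries, in CPM on a log axis, with 1 point per library and genes ordered by unadjusted p. The square of cre_negative_819 lies right of the rest for Car1, Blvrb and Aqp1, while cre_negative_780 lies among or near the mutant libraries.

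Among mast cell and basophil genes, 15 of 22 had a lower mean in the mutant, beside 55.8% of all genes, and 5 lay below both Cre-negative libraries, beside 7.27%. Il1rl1, the interleukin 33 receptor found on mast cells and their progenitors, stood at 7.93, 9.88, 10.5 and 11.3 CPM in the mutant and 11.5 and 106 in the Cre-negative libraries. Cre_negative_780 was only just above the highest mutant library, and the log2 difference of -2.57 (SE 0.57) was -0.19 without cre_negative_819. Alox5, the enzyme that starts leukotriene synthesis, stood at 3.91, 4.09, 4.15 and 4.86 against 6.17 and 9.47, and both Cre-negative libraries were higher than every mutant and wild-type library. Gzmb stood at 0.819, 0.482, 0.989 and 3.10 against 0.863 and 8.66, and mutant_830 lay above the other mutant libraries. The list's median was -0.22, -0.10 without cre_negative_780 and -0.17 without cre_negative_819.

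Many lists placed the 2 Cre-negative libraries on opposite sides of the mutant range, which 14.5% of all genes did with cre_negative_780 above and 14.8% with it below. Of 31 long-term stem cell genes, 18 lay above the mutant range in cre_negative_780 and below it in cre_negative_819. Mecom, a transcription factor needed for stem cell upkeep, stood at 145, 145, 129 and 139 CPM in the mutant and 178 and 63.5 in the Cre-negative libraries. Esam, a surface marker of stem cells, stood at 44.8, 42.1, 49.1 and 53.4 against 55.4 and 21.6. The median over the list was 0.09, 0.81 without cre_negative_780 and -0.33 without cre_negative_819, so its direction was set by which library was kept. Late neutrophil granule genes had a median of 0.28, with 2.35 without cre_negative_780 and -0.27 without cre_negative_819. Only 4 of these 20 genes lay above the mutant range in cre_negative_780 and below it in cre_negative_819. The mutant libraries were themselves spread: against the mean of all libraries, the list's median log2 level was 1.78 in mutant_830 and -0.47 to 0.35 in the other mutant libraries. It was 1.29 in cre_negative_780 and -1.19 in cre_negative_819. The lymphoid-primed list did as the stem cell list for 12 of 20 genes and the list of Meis1, Hoxa and Pbx genes for 9 of 15.

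Proliferation genes were placed the other way. Of 33 G2 and mitosis genes, 31 lay below the mutant range in cre_negative_780 and above it in cre_negative_819, as did 19 of 35 S phase genes and 25 of 41 genes of DNA damage sensing and checkpoint control, the process named in the study's title. Aspm, a spindle pole protein, stood at 148, 161, 179.8 and 161 CPM in the mutant and 146 and 297 in the Cre-negative libraries. Blm, the helicase of the DNA repair list, stood at 72.4, 73.6, 70.3 and 72.6 against 56.6 and 131. The DNA damage list had 34 of 41 genes with a lower mean in the mutant and 1, Rad17, without overlap, beside 55.8% and 7.27% of all genes. Its median of -0.09 was -0.28 without cre_negative_780 and 0.16 without cre_negative_819. Of 22 genes of anthracycline targets, efflux and reduction, 15 had a lower mean, 3 lay above both Cre-negative libraries and 1 below, beside 5.09% and 7.27% of all genes. Cbr3, a carbonyl reductase, stood at 2.18, 1.86, 2.03 and 2.11 against 1.33 and 0.934, and Xdh, xanthine dehydrogenase, at 4.77, 4.30, 6.15 and 6.54 against 9.64 and 8.72. In both genes the groups did not overlap, with log2 differences of 0.85 (SE 0.26) and -0.75 (SE 0.23).

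Immediate early genes, which respond quickly to stimulation, lay above all mutant libraries in cre_negative_780 for 18 of 21 genes tested, beside 30.2% of all genes. Fos stood at 10.5, 24.7, 2.23 and 5.68 CPM in the mutant and 62.4 and 6.36 in the Cre-negative libraries, and Jun at 31.1, 53.9, 4.91 and 11.4 against 98.3 and 8.12. Wild type held 1.55 to 17.7 CPM of Fos and 4.12 to 31.3 of Jun. For both genes the libraries with Y-linked transcripts were the high ones within each of the 3 groups, mutant_824 and mutant_827 among them, and all 5 lay above the 4 without such transcripts. That was so of 4 of the 21 genes, beside 4.31% of all genes. Those libraries make up 2 of the 4 mutant and 1 of the 2 Cre-negative libraries, and their part in the results was not tested beyond a fit with Y-linked transcripts as a covariate, which called 0 genes. For 3 of the 21 genes, Nr4a2, Klf4 and Btg2, the mutant lay below both Cre-negative libraries, beside 7.27% of all genes. The list's median was -0.39, with 0.73 without cre_negative_780 and -0.60 without cre_negative_819.

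**Figure D4:**
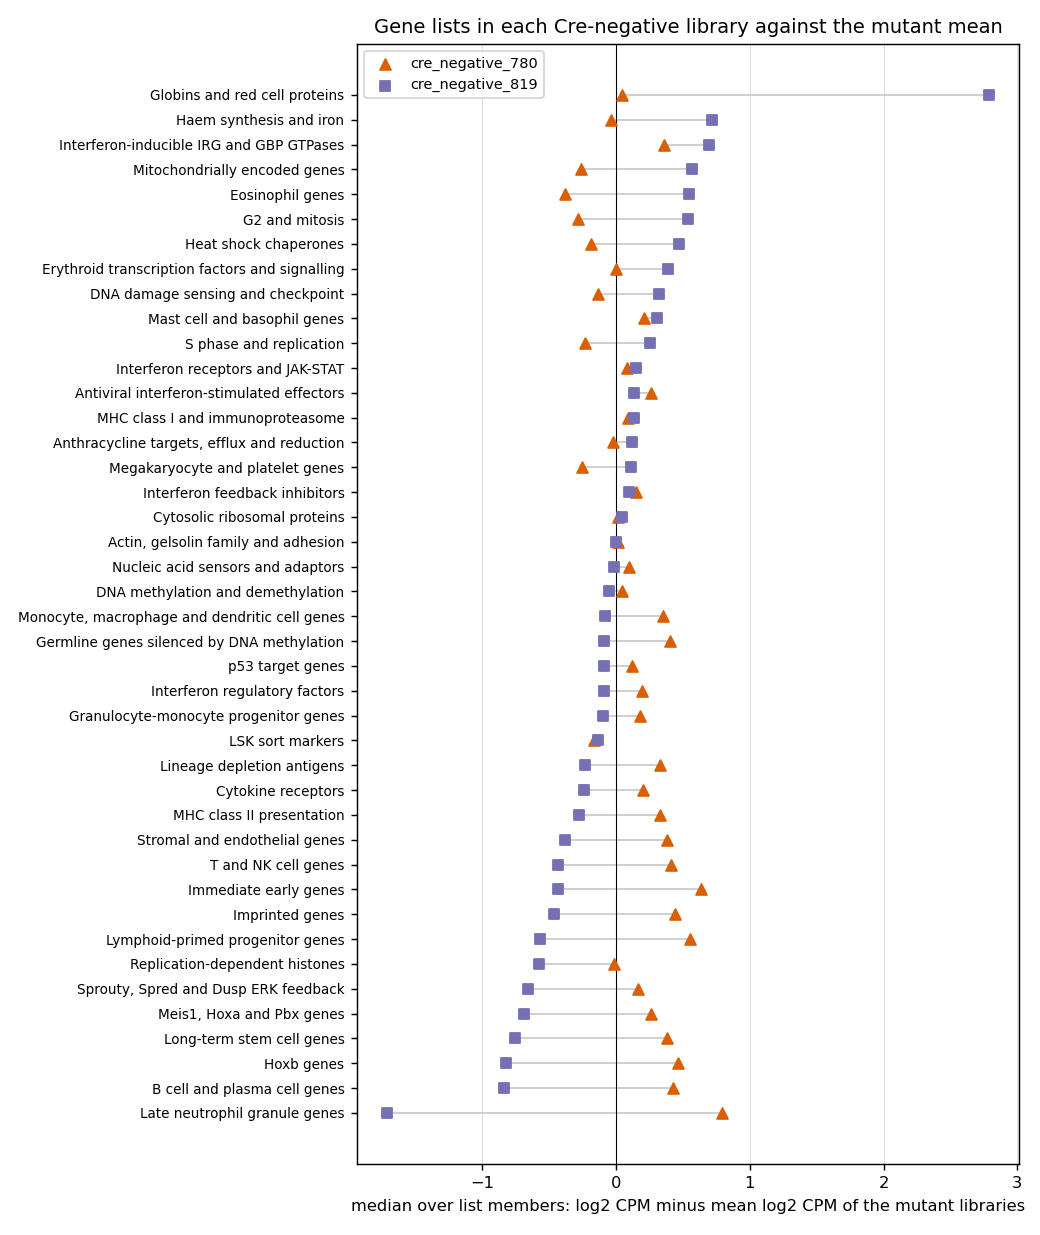
Median over the members of gene lists of log2 CPM minus the mean log2 CPM of the mutant libraries, for each Cre-negative library, with lists ordered by cre_negative_819. Red cell genes sit at 0.04 in cre_negative_780 and 2.78 in cre_negative_819, long-term stem cell genes at 0.38 and -0.76, and IRG and GBP genes at 0.36 and 0.69.

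Among the genes with the lowest p that were lower in the mutant, Net1 (chromosome 13, 3882018 to 3918220), a guanine nucleotide exchange factor, stood at 58.6, 60.7, 58.5 and 54.7 CPM in the mutant, 82.6 and 86.4 in the Cre-negative libraries and 55.9 to 64.2 in wild type. Its mutant and wild-type values overlapped and both Cre-negative libraries lay above them, with a log2 difference of -0.54 (SE 0.10), -0.52 without cre_negative_780 and -0.48 without cre_negative_819.

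Gpr174, a receptor for lysophosphatidylserine found on lymphocytes, stood at 1.76, 1.32, 1.17 and 1.25 CPM in the mutant and 3.10 and 3.21 in the Cre-negative libraries. Fbn1, the microfibril protein fibrillin, stood at 8.25, 8.04, 7.22 and 8.68 against 13.2 and 12.7. In these genes, as in Net1, the 2 Cre-negative libraries were close to each other. For Scin, an actin-severing protein, at 4.13, 4.8, 3.88 and 6.29 against 6.46 and 39.7, and Spry4, an inhibitor of ERK signalling, at 0.759, 0.911, 0.512 and 0.950 against 1.77 and 3.76, cre_negative_819 was above cre_negative_780 by more than the whole mutant spread. Without cre_negative_819 the log2 differences were -1.14 for Gpr174, -0.68 for Fbn1, -0.41 for Scin and -1.14 for Spry4, beside -1.20, -0.68, -2.27 and -1.82 with both libraries. Other low-p genes that were lower in the mutant were Il1rl1, Iigp1, Irf7, Ica1l, Aplp2 and Rab4a.

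Among genes higher in the mutant, Nsg1, a protein of neuronal endosomes, stood at 5.57, 3.68, 5.53 and 5.05 CPM in the mutant and 2.53 and 2.42 in the Cre-negative libraries. Aif1l, an actin-binding protein, stood at 5.49, 5.18, 5.05 and 5.05 against 2.29 and 3.0, and both Cre-negative libraries lay below all other libraries of both genes. Ggt1, the enzyme that breaks down extracellular glutathione, stood at 5.01, 3.14, 6.08 and 4.81 against 2.23 and 1.56 and at 0.903 to 1.42 in wild type, so that here the mutant was above both other groups. Hormad2, a meiotic chromosome protein in the list of germline genes silenced by DNA methylation, had the same order, at 5.57, 6.64, 7.49 and 9.40 against 3.33 and 4.42 and 1.68 to 3.05 in wild type. The list as a whole did not share this direction. Of its 11 tested genes, 5 had a higher and 6 a lower mean in the mutant, beside 44.2% and 55.8% of all genes. The groups did not overlap for 1 of the higher and 2 of the lower genes, beside 5.09% and 7.27% of all genes. The list's median log2 difference was -0.03. Vldlr, a lipoprotein receptor, stood at 161, 168, 272 and 292 against 119 and 85.8 and was higher in mutant_829 and mutant_830 than in the other 2 mutant libraries. Ighv1-80, an immunoglobulin heavy chain segment with close copies, stood at 6.17, 3.52, 1.62 and 1.25 against 0.105 and 0.0916, and its levels were spread widely within the mutant group. Its Cre-negative levels were near what 3 reads give in those libraries, 0.0632 and 0.055 CPM. Wild type lay between the groups, at 0.284 to 0.803. The log2 differences were 1.0 for Nsg1, 0.97 for Aif1l, 1.33 for Ggt1 and 1.12 for Vldlr. They were 1.08, 0.84, 1.66 and 1.43 without cre_negative_780, and 1.0, 1.21, 1.12 and 0.94 without cre_negative_819. The others were Dnmt3a, Stard13, Ppic, Ighv1-9, Dcst1, Gstm2 and Nanos3.

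**Figure D5:**
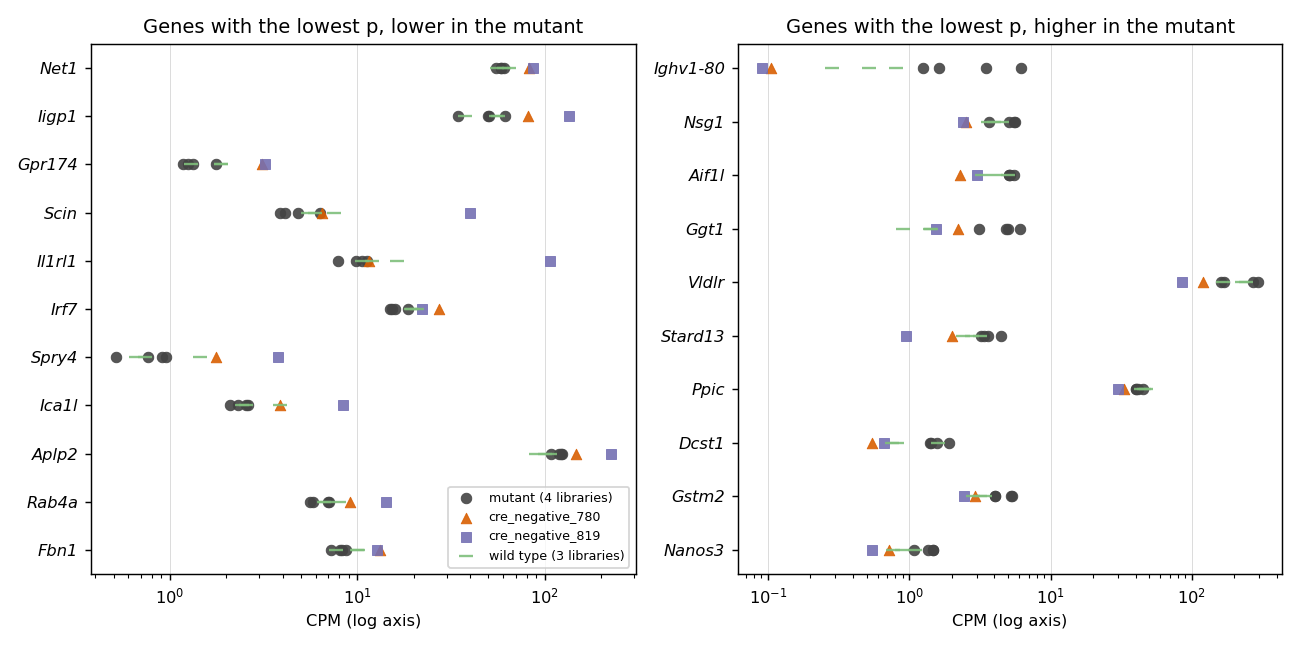
Level in every library, in CPM on a log axis, of genes reported here from those with the lowest unadjusted p. They were lower (left) or higher (right) in the mutant. Dnmt3a and Ighv1-9, which is at 0 in 1 library, are left out, and not every gene selected by p is shown. Net1, Gpr174 and Fbn1 show both Cre-negative libraries close together and right of the mutant libraries, and Scin and Il1rl1 show cre_negative_819 alone far to the right.

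Of 44 replication-dependent histone genes tested, 37 had a higher mean in the mutant, beside 44.2% of all genes, and 7 lay above both Cre-negative libraries (5.09% of all genes did). Their median was 0.24, 0.65 without cre_negative_780 and 0.08 without cre_negative_819. The 5 libraries with Y-linked transcripts all lay above the 4 without them for 9 of the 44 genes, beside 4.31% of all genes. The list's median in cre_negative_780 was -0.01 from the mutant mean on the log2 scale and that in cre_negative_819 -0.58. Hist1h4c stood at 43.6, 23.5, 22 and 34.2 CPM in the mutant, 20.4 and 15 in the Cre-negative libraries and 12.6 to 29.6 in wild type, so that mutant and wild-type values overlapped. Histone genes are near-identical copies and most of their transcripts lack poly(A) tails. Of 29 p53 target genes, 7 lay below both Cre-negative libraries and 2 above both, beside 7.27% and 5.09% of all genes. Zmat3, an RNA-binding p53 target, stood at 3.89, 3.66, 3.83 and 3.61 CPM in the mutant and 5.62 and 7.14 in the Cre-negative libraries, with both of the latter higher than every other library.

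Some genes were high in cre_negative_780 alone. Ly6c1, a surface antigen of myeloid and lymphoid cells, stood at 7.08 CPM there, 0.898 to 1.52 in the mutant and 1.32 in cre_negative_819. Klrb1c, the NK1.1 antigen of natural killer cells, stood at 16.8, 3.97 to 5.72 and 2.82 in the same order. Over the 11 tested lineage antigens, the median log2 difference was -0.09, 0.34 without cre_negative_780 and -0.27 without cre_negative_819.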

How the data were processed

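The deposited table holds raw counts per Ensembl gene, which the authors made with STAR and HTSeq 0.5.3p3 on mm10/GRCm38, per the submitters' processing notes; the strand setting is not given in the sources used here. The kit was a stranded total RNA kit with ribosomal RNA removal, per the labels' protocols. Rows that name no gene (40.5 to 47.3% of reads per library; non-unique alignments alone 21.6 to 28.3%) were left out. The deposited normalized table was not used. All 9 libraries were fitted with edgeR 4.0.16 (R 4.3.3; filterByExpr, TMM, 1 mean per group, quasi-likelihood test) and p-values were adjusted over 18576 genes. Alternatives used DESeq2 1.42.0 and limma 3.58.1. Of 39179 identifiers, 37693 matched GENCODE release M21, which gave symbols and coordinates. Principal components and list medians used log2 CPM with a prior count of 2. Promoters came from RefSeq on GRCm38.p6.

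Named genes had a mean of at least 1 CPM over the 6 libraries and a symbol that is no clone name: the 12 lowest p in each direction, up to 4 per interferon, erythroid or mast cell list and up to 2 per other list, plus Dnmt3a; others named for illustration were chosen after their values were seen. The members and lists were chosen with earlier results of these data known. On simulated counts with 200 changed genes of 18244, the test called 5.97% at 1.5-fold, 44.8% at 2-fold and 51.5% at 4-fold, with 4 false calls. All simulated libraries shared the same spread for a gene, so the wider distance between the 2 Cre-negative libraries was not simulated. The rates hold for that setting only. Library numbers pair no samples. Not every gene or list selected in this way is reported here, although all count in the totals.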

Additional observations from a re-analysis of the deposited data

Results flagged for a closer look

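In 5 of 120 named genes, 1 mutant library lay far from the other 3, by a gap over range above Dixon's 95% critical value; chance does this in about 1 in 20 groups. Ighv1-9 was at 4.53 CPM in mutant_824 and 0.759 to 1.21 in the others. Arhgef25 was at 17.7 CPM in mutant_829 and 8.95 to 9.58 in the others. Rad17 was at 39.7 CPM in mutant_824 and 43.0 to 43.6 in the others. Ms4a2 was at 5.78 CPM in mutant_830 and 3.61 to 3.83 in the others. Igf2r was at 84.4 CPM in mutant_829 and 52.2 to 55.9 in the others. The reasons were not tested.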

How the results depend on the processing

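No paired analysis was possible because the library numbers differ between the groups. The edgeR count of 0 genes past an adjusted p of 0.05 was also 0 under RLE and upper-quartile scaling, no filter, a filter that asked for 1 CPM in at least 2 libraries, a fit of the 6 libraries alone, a covariate for Y-linked transcripts and limma-voom. DESeq2 gave 22 (0.0538% of genes higher, 0.0646% lower). Leaving out 1 library at a time gave 0 to 1835 (0 to 5.24% higher, 0 to 4.26% lower), the highest without cre_negative_780. At an unadjusted p under 0.05 the count of 978 was 1558 with the Y-linked covariate, 183 with limma-voom and 614 to 5113 with a library left out. Dnmt3a differed by 0.63 in DESeq2 and 0.48 to 0.83 with a library left out. Among the other 119 named genes, 22 changed sign with a library left out and 0 under the other settings. Without cre_negative_819 these were Klf1 (range -3.29 to 0.22), Aqp1 (-2.73 to 0.15), Tfrc (-1.94 to 0.05), Ccne1 (-1.88 to 0.25), Cpox (-1.95 to 0.24), Epor (-2.02 to 0.14), Slc11a2 (-1.48 to 0.16), Ms4a2 (-1.56 to 0.29), Gzmb (-2.64 to 0.67), Itga4 (-0.87 to 0.06), Hsph1 (-1.27 to 0.27), Aspm (-0.82 to 0.19), Ccne2 (-0.85 to 0.16), Eif2ak2 (-0.37 to 0.01), Siglecf (-0.90 to 0.20), Rpl10 (-0.27 to 0.05), Hoxa2 (-0.15 to 1.22) and Hoxb5 (-0.16 to 0.98). Without cre_negative_780 they were Klrb1c (-1.85 to 0.74), Ddx4 (-1.20 to 0.46), Zrsr1 (-0.36 to 0.04) and Cd74 (-0.52 to 0.24). Of 43 list medians, 21 changed sign without cre_negative_819 and 14 without cre_negative_780, 34 in at least 1 of these fits. Those that did so from a value larger than the spread between libraries of a group were erythroid transcription factors (-0.34 to 0.043), haem and iron (-0.67 to 0.067) and red cell genes (-2.73 to 0.079). The limits that depth and the spread between libraries set were not compared.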
